A study of Mus musculus with 4 samples.

Results

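The GATA factor family was described through 8 genes: the 6 GATA transcription factors Gata1 to Gata6, and Zfpm1 and Zfpm2, which encode the cofactors FOG1 and FOG2. They were chosen by gene name alone, and each name matched 1 of the 22369 rows of the deposited expression table. Of the 8 members, 7 passed the filter on low values, which asked for 1 or more in 2 or more libraries, and were tested. Gata1 did not reach this and is given by its values only.

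GATA factors are zinc finger proteins named after the short DNA motif they bind, and FOG proteins bind the amino-terminal of their zinc fingers and recruit corepressors. Gata1, Gata2 and Gata3 are best known from blood, endothelium and trophoblast, whereas Gata4, Gata5 and Gata6 act in heart, gonad and endoderm. In reprogramming, lineage specifiers that include Gata3, Gata4 and Gata6 have been reported to stand in for OCT4, and Gata4 and Gata6 mark primitive endoderm, a lineage in which SOX17 also acts.

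The series asked how the V118M change in SOX17, a missense mutation at the surface that contacts OCT4, alters expression during reprogramming. RNA was sequenced from OG2MEF cells, embryonic fibroblasts of mice whose Oct4 reporter makes a green fluorescent protein, on day 9 of reprogramming, with 2 libraries labelled SOX17-V118M and 2 labelled SOX17 WT. The growth protocol, shared by all 4 libraries, names retroviral Sox2 and Klf4 with OCT4, SOX17, SOX17-V118M or GFP, followed by medium for embryonic stem cells that held LIF and vitamin C, and it does not say which mix each library received. No label says whether the replicates of a group came from different cultures, so the p-values rest on a spread between libraries that may be purely technical.

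The values are whole numbers on a normalized scale that gives all 4 libraries nearly the same distribution, with a median of 76 and a maximum of 61186. Depth is therefore unknown, and no counting intervals are given. Sox17 itself stood at 3016 and 2396 in the V118M libraries, against 3484 and 2880 in the WT libraries. Pou5f1, the gene of OCT4, stood at the maximum of 61186 in all 4 libraries. Sox2 was at 4 and 2 in V118M and at 2 and 2 in WT. Which viruses each library received was not tested. The table carries no sequence variants, so the mutation could not be checked. V118M replicate 2 stood apart, with Pearson correlations of 0.954 to 0.964 with the other libraries across 12661 genes, whereas the other 3 libraries correlated at 0.986 to 0.990 with each other. Its deviation from the others ran with transcript length across genes (Spearman's rho -0.458), so results are also given without it. Over all genes tested, 0 of 19547 passed an adjusted p of 0.05 (limma with Benjamini-Hochberg adjustment), and 784 had an unadjusted p under that value.

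Gata2, Gata3 and the FOG genes were well above the table's median value, Gata6 was near it, and Gata4, Gata5 and Gata1 were near the bottom of the scale. To compare levels between genes, each value was divided by the length of the table's transcript in kilobases. On this scale Gata2, a regulator of blood stem cells and endothelium, was the highest member in every library, at 138 and 122 per kilobase in the V118M libraries, against 194 and 185 per kilobase in the WT libraries. Gata3, a factor of T cells, trophoblast and surface epithelia, had levels of 81.5 and 64.7 per kilobase in the V118M libraries and 107 and 105 per kilobase in the WT libraries. Zfpm1, which encodes the GATA1 partner FOG1, had levels of 96.2 and 60.8 per kilobase in V118M, against 102 and 88.5 per kilobase in WT. These ranges of Gata3 and Zfpm1 overlapped in V118M, where replicate 1 had Zfpm1 above Gata3, and they were adjacent without overlap in WT. Zfpm2, which encodes FOG2, a partner of GATA4 in heart and gonad, came next at 70.7 and 60.4 per kilobase in V118M and 67.5 and 69.1 per kilobase in WT. It overlapped with both Gata3 and Zfpm1 in V118M and with neither in WT. Gata6 had 32.5 and 28.4 per kilobase in V118M and 36.8 and 35.9 per kilobase in WT, below all 4 of these genes. Gata4, Gata5 and Gata1 were each under 5 per kilobase in every library, and Gata5 and Gata1 overlapped in V118M.

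**Figure D1:**
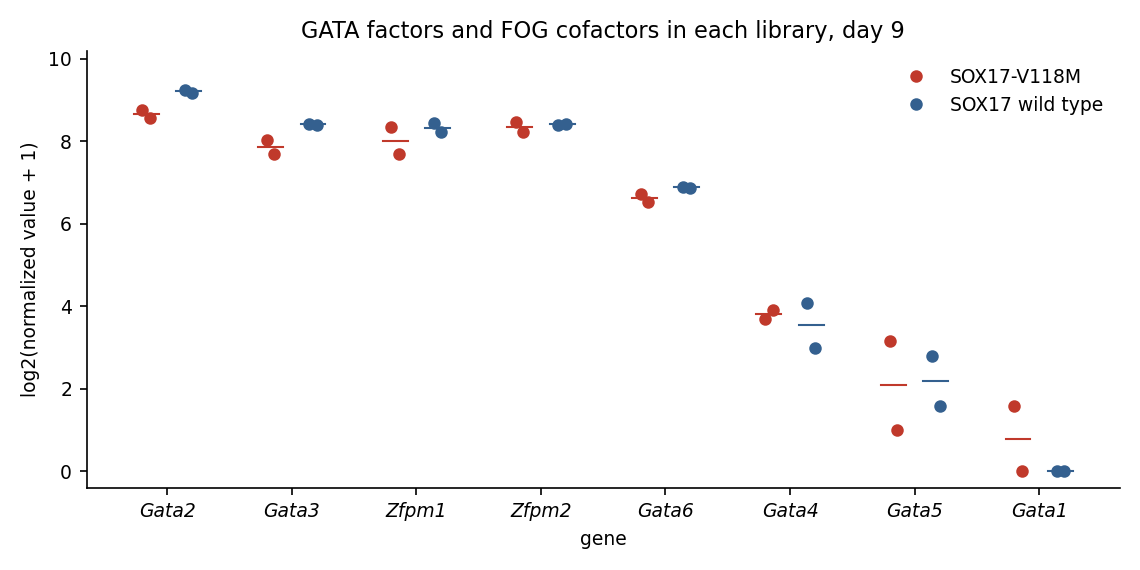
Values of the 8 members in each library, as log2(normalized value + 1), with V118M (red) left of WT (blue) for each gene; points are libraries and short lines are means of 2. Genes run from the highest to the lowest mean level per kilobase, while the plotted values are not divided by length. Both V118M points lie below both WT points for Gata2, Gata3 and Gata6.

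Summed over the 8 members, the level was 426 and 340.3 per kilobase in the V118M libraries, against 514 and 486 in the WT libraries. Gata2 made up 32.4% and 35.7% of this sum in V118M, against 37.7% and 38.0% in WT. The ratio of the Gata2 level to the Gata3 level per kilobase was 1.69 and 1.88 in V118M, against 1.81 and 1.76 in WT, and these ranges overlapped.

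Gata2 and Gata3 showed the clearest differences of the family, both about 0.55 log2 units lower in V118M, and neither passed the test over all genes. Gata2 (ENSMUSG00000015053, chromosome 6, 88193891 to 88207032, plus strand of mm10) had normalized values of 432 and 381 in the V118M libraries, against 607 and 580 in the WT libraries. Both V118M values lay below both WT values, and V118M replicate 2 was the lowest. In terms of rank, 71.5% and 69.4% of genes in the table had a lower value than Gata2 in the V118M libraries, against 77.2% and 76.4% in the WT libraries. On the log2(value + 1) scale Gata2 differed by -0.55 ± 0.15 (standard error), with a 95% interval of -0.94 to -0.16 and an adjusted p of 0.951 (limma). Its unadjusted limma p of 0.0152, from the model fitted across all genes, placed it at position 249 of 19547.

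Gata3 (ENSMUSG00000015619, chromosome 2, 9857078 to 9890034, minus strand) had normalized values of 262 and 208 in the V118M libraries, against 344 and 338 in the WT libraries. The groups again did not overlap, and the V118M pair differed more from each other than the WT pair did. The difference was -0.54 ± 0.19 log2 units (standard error), with a 95% interval of -1.02 to -0.07 and an adjusted p of 0.951 (limma). The unadjusted limma p from the same model was 0.0315, at position 504 of 19547. Of the 7 tested members, 2 had an unadjusted p under 0.05, where 4.01% of all genes tested did. Both were lower in V118M, as were 1.70% of all genes tested at that threshold, against 2.31% that were higher. With the replicate number as a block, 3 genes passed the adjusted threshold, 0.0153% of those tested, and none of them was a member.

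Since the groups of both genes do not overlap, each V118M library necessarily lay below the WT mean, and only the size is informative. V118M replicate 1 differed from the WT mean by -0.46 log2 units for Gata2 and by -0.38 for Gata3. V118M replicate 2 was further away, at -0.64 for Gata2 and -0.71 for Gata3. With each library corrected for a smooth trend on the length and GC content of transcripts, the log2 fold changes were -0.51 for Gata2 and -0.50 for Gata3. Without WT replicate 1 the unadjusted limma p was 0.154 for Gata2 and 0.180 for Gata3, and without WT replicate 2 it was 0.117 and 0.163 for these genes. Without V118M replicate 1 it was 0.0205 and 0.00528, and without V118M replicate 2 it was 0.0323 and 0.0124. With limma's trend and robust options off and all 4 libraries, it was 0.0298 for Gata2 and 0.0527 for Gata3.

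The promoters of both genes are shown because these are the members with the clearest differences. They were taken from RefSeq on GRCm38.p6, where 5 of the 8 members had an entry (Gata1, Gata2, Gata3, Gata5 and Zfpm1). Each is the 250 bases before the start of the transcript listed in the table, for Gata2 at chr6:88193641-88193890 (plus strand) and for Gata3 at chr2:9878601-9878850 (minus strand). Gata2 has another listed start, 4773 bases downstream. Capitals mark matches to the GC box GGGCGG on either strand.
Gata2: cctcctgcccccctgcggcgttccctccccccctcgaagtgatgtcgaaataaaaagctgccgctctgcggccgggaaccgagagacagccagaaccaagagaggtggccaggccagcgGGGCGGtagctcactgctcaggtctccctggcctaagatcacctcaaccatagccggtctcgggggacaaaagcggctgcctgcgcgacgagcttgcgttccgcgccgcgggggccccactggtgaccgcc
Gata3: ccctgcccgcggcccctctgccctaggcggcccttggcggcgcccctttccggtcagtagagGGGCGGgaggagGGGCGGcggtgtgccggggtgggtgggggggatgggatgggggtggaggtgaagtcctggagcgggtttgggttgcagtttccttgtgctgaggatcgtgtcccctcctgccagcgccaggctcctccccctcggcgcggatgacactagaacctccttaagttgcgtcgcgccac
The Gata2 window held 1 GC box and 22 CpG dinucleotides, and the Gata3 window held 2 GC boxes and 19 CpG dinucleotides, where the median over all 32851 windows of this length was 6 CpG dinucleotides. A GC box was found in all 6 windows of these 5 members and in 32.7% of all windows. The GATA core GATAA, the SOX core CATTGT, the octamer ATGCAAAT and the TATA box TATAAA, searched on both strands, had no match in the 6 member windows. These motifs were present in 22.6%, 10.7%, 1.60% and 12.4% of all windows in that order. The 6 member windows had a GC content of 54.0% to 74.0%, where the median over all windows was 52.4%. The part of GC content in these matches and absences was not tested. The compressed SOX and OCT element of the series text, CATTGTATGCAAAT, whose first and last letters are the same SOX core and octamer, was found in 0 of the 32851 windows.

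Among the endodermal and cardiac GATA factors, Gata6 was slightly lower in V118M without passing the test, and Gata4 and Gata5 were too low for a difference to be measured with any precision. Gata6 (chromosome 18, 11052064 to 11085635), which drives primitive endoderm, had normalized values of 105 and 92 in the V118M libraries and 119 and 116 in the WT libraries. The groups did not overlap, and the difference was -0.26 ± 0.20 log2 units (standard error), with an adjusted p of 0.951 (limma). Gata4 (chromosome 14, 63198922 to 63271692), a regulator of heart, gonad and endoderm, had normalized values of 12 and 14 in V118M and 16 and 7 in WT. Its groups overlapped, and its log2 fold change of 0.26 had a 95% interval of -1.11 to 1.63. Gata5 (chromosome 2, 180325133 to 180334699), a cardiac and gut factor, had normalized values of 8 and 1 in V118M and 6 and 2 in WT. Within each group the 2 libraries differed more than the group means did. Gata1 (chromosome X, 7959260 to 7978071), the master factor of red cells and megakaryocytes, had a normalized value of 2 in V118M replicate 1 and was listed at 0 in V118M replicate 2 and in both WT libraries.

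The FOG genes showed no difference beyond the spread between replicates. Zfpm1 (chromosome 8, 122282141 to 122337251) had normalized values of 326 and 206 in the V118M libraries and 346 and 300 in the WT libraries. Only V118M replicate 2 was low, and V118M replicate 1 lay between the WT values. The difference was -0.31 log2 units, with a 95% interval of -0.99 to 0.36 and an adjusted p of 0.951 (limma), and it was 0.02 without V118M replicate 2. Zfpm2 (chromosome 15, 40655035 to 41104592) had normalized values of 352 and 301 in V118M and 336 and 344 in WT, with both WT values between the V118M values. Its log2 fold change of -0.06 had a 95% interval of -0.48 to 0.36, so changes of the size seen for Gata2 lay outside it.

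**Figure D2:**
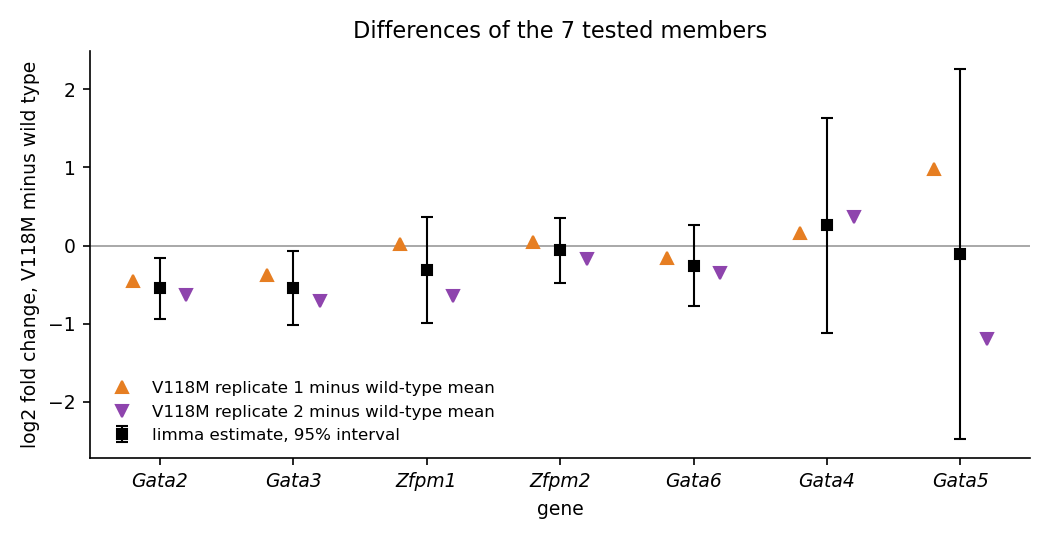
Log2 fold change of V118M minus WT on the log2(value + 1) scale for the 7 tested members; black squares with bars are limma estimates with 95% intervals, and triangles are each V118M library minus the WT mean. The intervals of Gata2 (-0.94 to -0.16) and Gata3 (-1.02 to -0.07) lie below 0, before any adjustment for the number of genes, and those of the other 5 include 0.

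Over the 7 tested members, 6 had a log2 fold change below 0 and 1 above, and the median was -0.26, where the median over all genes tested was 0.00, with 49.0% of genes below 0 and 49.8% above. In 3 members both V118M values lay below both WT values, and this was so for 14.8% of all genes tested. In 0 members were both V118M values above both WT values, against 13.2% of all genes. Without V118M replicate 2, 4 of the 7 had a log2 fold change above 0, namely Gata4, Gata5, Zfpm1 and Zfpm2, at 0.16, 0.97, 0.02 and 0.05. Since the groups of Gata2, Gata3 and Gata6 do not overlap, their sign cannot change when a library is left out, and the size of their log2 fold changes then ranged over -0.64 to -0.46, -0.71 to -0.38 and -0.35 to -0.16.

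**Figure D3:**
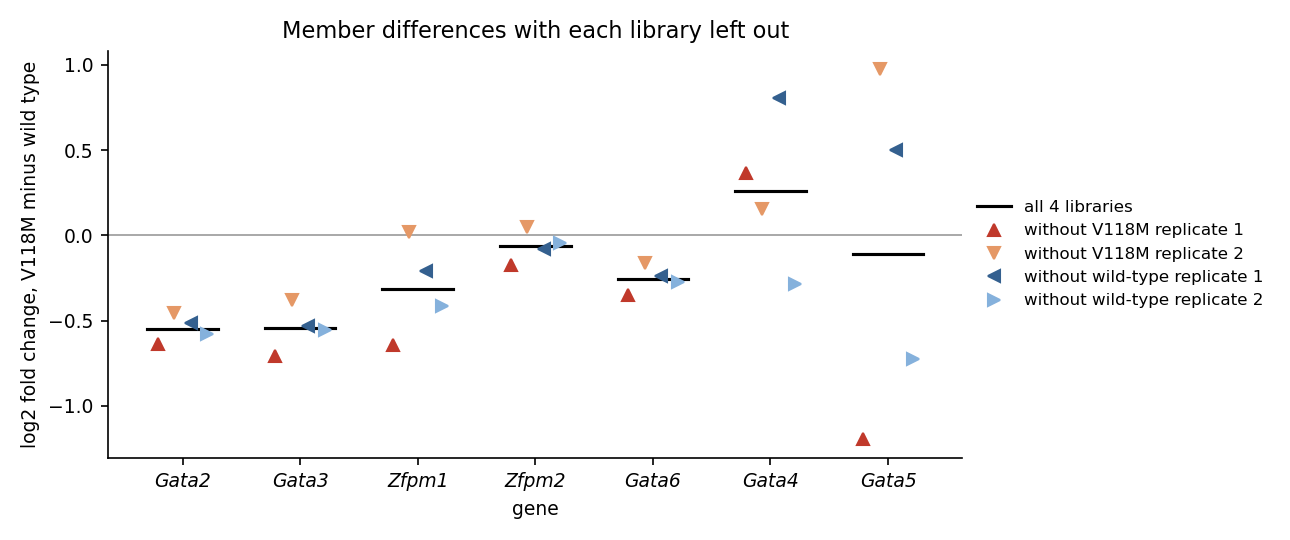
Log2 fold change of V118M minus WT for the 7 tested members with all 4 libraries (black line) and with each library left out (triangles). The size ranges from -0.64 to -0.46 for Gata2 and from -0.71 to -0.38 for Gata3, whose sign is fixed because their groups do not overlap, and from -1.20 to 0.97 for Gata5.

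Annotated genes that overlap the members could share reads with them, since the sources used here do not say whether counting used the strand. The antisense gene Gm13256 at the Gata3 start was listed at 0 in all 4 libraries, as was 4930412O13Rik on the strand opposite Gata3, and 9230102O04Rik on the same strand was at 0 or 1. Zfpm1 lies inside the annotated span of Gm20388 on the same strand, a gene with values of 471 and 1629 in V118M and 892 and 881 in WT, so its reads are less certain. Gata5 and Gata6 overlap the opposite-strand genes Gata5os and 1010001N08Rik, and 3 short annotated genes lie inside Zfpm2 on its own strand (Gm49524, Gm49525 and Gm49526). These 5 genes were not analysed here.

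The genes with the profile most like each member were found by the root mean square distance between centred log2 values over the 4 libraries, among 14634 other tested genes with a mean value of at least 10. Nearest to Gata2 were Ptpn6, a phosphatase of blood cells, at a distance of 0.0104 log2 units, the semaphorin Sema3b at 0.0119 and the histamine receptor Hrh1 at 0.0122. Sema3b, for example, had normalized values of 464 and 414 in V118M and 664 and 622 in WT. Nearest to Gata3 were the focal adhesion gene Tns2 at 0.0274, Lynx1 at 0.0277 and Ccdc120 at 0.0337. Nearest to Gata6 were Calcrl, a receptor for adrenomedullin, at 0.0058, then Dusp18 and Eloa. For Zfpm1 they were Urb1, Rpusd1 and Ddx6, for Zfpm2 Git1, Rnf216 and Gm20594, and for Gata4 Stx1a, Npr1 and Cd274. How many genes lie within these distances was not counted, and with 4 libraries the distance describes these libraries only.

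Genes of the proteins that FOG factors recruit, and genes with related zinc fingers, showed no difference that passed the test over all genes. Of 10 corepressor genes of the NuRD and CtBP complexes, 0 passed the limma test over all genes and 0 had an unadjusted p under 0.05. In that list 9 of 10 had a log2 fold change above 0, with a median of 0.15, and the list median relative to the WT mean was 0.01 for V118M replicate 1 and 0.30 for V118M replicate 2. Chd4, the remodelling ATPase of NuRD, had normalized values of 9969 and 8374 in V118M and 8738 and 9012 in WT. The histone chaperone Rbbp7 had normalized values of 3079 and 5446 in V118M and 3037 and 3220 in WT, so V118M replicate 2 alone was high. Of 8 genes with related zinc fingers, 4 had a log2 fold change above 0 and 4 below, none with an unadjusted p under 0.05. Mta1 and Mta2, subunits of NuRD, and Gatad2a, another NuRD subunit, were the highest of them, and their groups overlapped.

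Blood partners and targets of GATA1 and GATA2 showed no difference that passed the test over all genes. Of 14 listed partner genes, 13 were in the table and 11 were tested, with 0 passing over all genes. In 3 of these 11 both V118M values lay above both WT values, and in 2 both lay below. Of all genes tested, 13.2% and 14.8% did so. At an unadjusted limma p under 0.05, 2 of the 11 were higher and 1 lower in V118M. Of all genes tested, 2.31% were higher and 1.70% lower at that threshold. The 3 partner genes were Fli1, Gfi1b and Cbfa2t3, named after their values were seen. Fli1, an ETS factor of endothelium and megakaryocytes, had normalized values of 28 and 32 in V118M and 13 and 12 in WT. Gfi1b, a repressor of red cell and platelet precursors, had normalized values of 4 and 7 in V118M and was listed at 0 in both WT libraries. It passed the filter on low values through the V118M libraries alone, so once tested it could only come out higher. Cbfa2t3, a corepressor found in GATA1 complexes, had normalized values of 50 and 32 in V118M and 72 and 71 in WT. The most abundant partners, Tcf3, Ldb1 and Runx1, had log2 fold changes of -0.06, 0.00 and -0.16. Tal1 was listed at 0 in every library except V118M replicate 2, where it was 1, and Lyl1 was listed at 0 in all 4. Of 23 erythroid and megakaryocyte genes, 20 were in the table and 16 were tested, of which 0 had an unadjusted p under 0.05. Their median log2 fold change was -0.21, and it was 0.00 without V118M replicate 2. Hba-a2 and Slc4a1, the alpha globin and the band 3 anion exchanger of red cells, were listed at 0 in all 4 libraries, and the red cell enzyme gene Alas2 was at 4 or less in every library. The embryonic globin Hbb-y had normalized values of 163 and 180 in V118M and 142 and 206 in WT, and reads of globin copies could be split between them.

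Genes of the other lineages in which GATA factors act were compared in the same fit, and 0 of them passed over all genes tested. An unadjusted p under 0.05 was found for 1 of 5 mast cell, 4 of 15 trophoblast, 2 of 15 endoderm, 0 of 13 cardiac and 0 of 11 gonad and adrenal genes, where 4.01% of all genes tested had one. Among 5 tested mast cell and type 2 immunity genes, Il1rl1, the receptor for interleukin 33, had normalized values of 269 and 256 in V118M and 164 and 149 in WT, a difference of 0.74 log2 units with an adjusted p of 0.951 (limma). Among 15 tested trophoblast genes, 7 had a log2 fold change above 0 and 8 below, with a median of -0.10. In 3 both V118M values lay above both WT values, and in 3 both lay below. Of all genes tested, 13.2% and 14.8% did so. At an unadjusted limma p under 0.05, 3 trophoblast genes were higher and 1 lower. The lower one was Ets2, a factor of trophoblast stem cells, at 1226 and 1155 in V118M and 1594 and 1582 in WT. The higher ones, named after their values were seen, were Cited1, Eomes and Plac1. The transcriptional cofactor Cited1 was at 256 and 309 in V118M and 115 and 151 in WT. The T-box factor Eomes, which maintains trophoblast stem cells, was at 51 and 42 in V118M and 20 and 26 in WT. The placental gene Plac1 was at 6 and 12 in V118M and 2 and 2 in WT. Cdx2 and Hand1 were listed at 0 in all 4 libraries. The most abundant trophoblast gene of the list, Krt8, was at 6332 and 5972 in V118M and 6702 and 6490 in WT.

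Among 15 tested primitive and visceral endoderm genes, 10 had a log2 fold change below 0 and 5 above, with a median of -0.09 (-0.40 without V118M replicate 1 and 0.08 without V118M replicate 2). In 2 both V118M values lay above both WT values, and in 5 both lay below. Of all genes tested, 13.2% and 14.8% did so. The most abundant gene of the list, Sparc, was at 11735 in both V118M libraries and at 9950 and 11735 in WT. Foxa2 and Afp, defining genes of this lineage, were listed at 0 in all 4 libraries. Named after its values were seen, the SOX17 relative Sox7 had normalized values of 24 and 27 in V118M and 73 and 52 in WT. Pdgfra, a receptor of primitive endoderm and of fibroblasts, had normalized values of 460 and 352 in V118M and 302 and 248 in WT, also named after its values were seen. Of 13 tested cardiac genes and 11 tested gonad and adrenal genes, 0 had an unadjusted p under 0.05, and the medians were 0.02 and -0.04. The cardiac factor Mef2c had normalized values of 692 and 644 in V118M and 582 and 571 in WT, and follistatin (Fst) had 1994 and 3086 in V118M and 2536 and 2574 in WT.

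**Figure D4:**
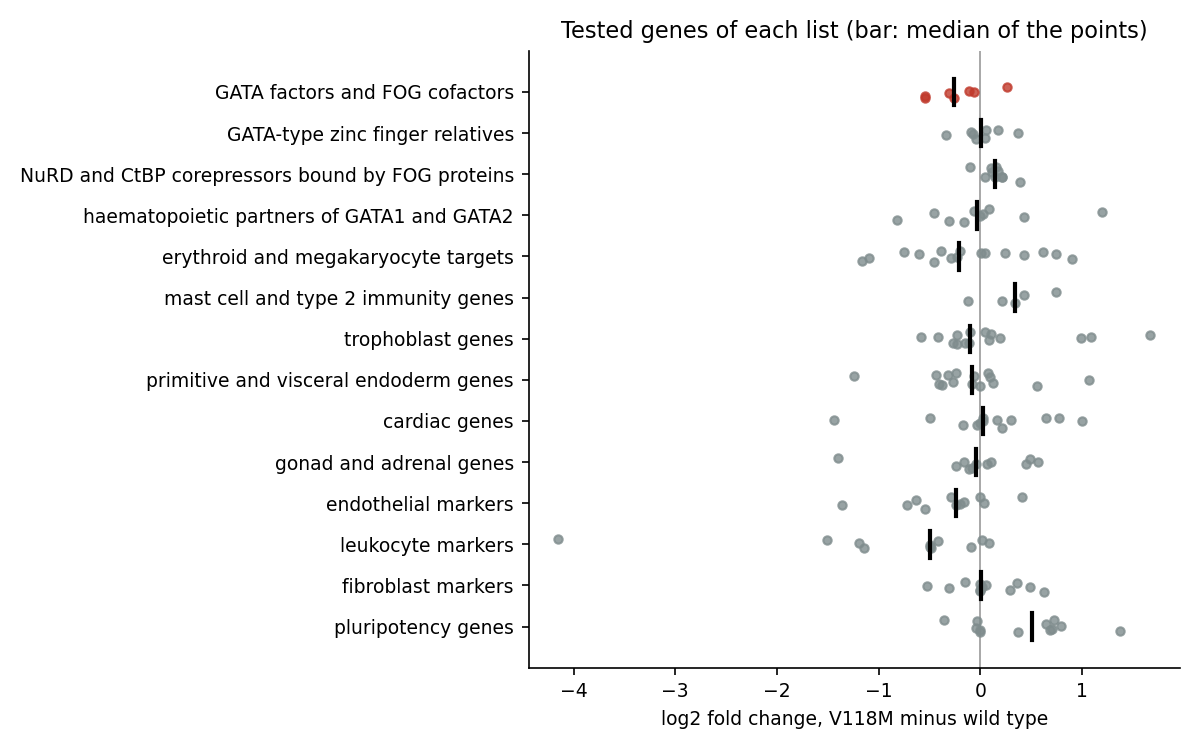
Log2 fold change of V118M minus WT for each tested gene of the family (red) and of 13 other lists (grey), with black bars at the median of the points; Gfi1b (listed at 0 in both WT libraries) and Dppa2 (listed at 0 in both V118M libraries) are left out. The family's median is -0.26, and most list medians lie within 0.3 of 0.

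Markers of endothelium and leukocytes, cell types that can express Gata2 or Gata3, were examined beside these genes. Fewer cells of a type and less RNA per cell cannot be told apart in bulk RNA. Of 11 tested endothelial markers, 9 had a log2 fold change below 0, with a median of -0.24 (-0.09 without V118M replicate 2), and 5 had both V118M values below both WT values while 1 had both above, where 14.8% and 13.2% of all genes tested did so. Summed over the 12 listed markers, the value was 1915 and 1642 in V118M, against 2082 and 2079 in WT. Most of this sum came from Tek, at 1054 and 933 in V118M and 1103 and 1172 in WT. The 3 most abundant markers, Tek, Eng and Flt1, had log2 fold changes of -0.20, -0.29 and -0.24. The lowest fold change was that of Cdh5, the endothelial cadherin, named after its values were seen, at 9 and 6 in V118M and 26 and 16 in WT. The adhesion molecule gene Pecam1, also named after its values were seen, was at 18 and 24 in V118M and 17 and 14 in WT, and Emcn was listed at 0 in all 4 libraries. Of 11 tested leukocyte markers, 9 had a log2 fold change below 0, with a median of -0.50 that ranged from -1.40 to -0.11 with each library left out. In 1 of them both V118M values lay below both WT values, and in 0 above. The summed value of the 12 listed markers was 648 and 674 in V118M, against 966 and 859 in WT. The most abundant, the integrin gene Itgam, was at 366 and 330 in V118M and 251 and 428 in WT, and its groups overlapped. The marker without overlap was Ptprc, which encodes the leukocyte antigen CD45 and was named after its values were seen. It had a normalized value of 30 in V118M replicate 1 and was listed at 0 in V118M replicate 2, against 165 and 58 in the WT libraries. The part of these cell types in the Gata2 and Gata3 values was not tested. Fibroblast markers were abundant, as the label of the cells says, and their median log2 fold change was 0.01 over 12 genes, with 3 higher in V118M without overlap and 0 lower. These 3, named after their values were seen, were Postn (1889 and 1744 in V118M, 1263 and 1098 in WT), Lum and Twist2. Col1a2 and Col3a1 stood in the compressed top of the scale, where Col3a1 was at 61186 and 29496 in V118M and at 61186 in both WT libraries. Of 13 tested pluripotency genes, 7 had a log2 fold change above 0 and 5 below, with a median of 0.37 (0.02 without V118M replicate 1, and 0.50 without Dppa2, listed at 0 in both V118M libraries).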

How the data were processed

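RNA from 4 libraries was profiled with a TruSeq Nano RNA kit, per the labels' protocols. FastQC, Bowtie2, RSEM, DESeq2 and the mm10 build are listed in the submitters' processing notes, with no version, role or order. The deposited values are scores, whole numbers after a normalization for which the sources used here give no method. They cannot be raw counts, because 76.7% of ranks hold an identical value in all 4 sorted columns and totals differed by at most 0.0321%. Depth is therefore unknown, and the top of the scale is compressed, since 10 genes share the highest value. Transcript lengths and gene positions came from GENCODE M21 on GRCm38, the assembly also called mm10, where 22304 of the table's 22369 transcripts were found.

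Values were transformed as log2(value + 1), which understates changes of low genes, and the 19547 genes at 1 or more in 2 or more libraries were fitted with limma 3.58.1 in R 4.3.3 (trend and robust options, group as the only term, two-sided tests). P-values were adjusted over all genes tested. The members, the 13 other gene lists and the tests were chosen with earlier results of these data known. Members are named throughout, and of each other list the 3 genes with the highest mean log2 value were eligible. Sox17, Tal1 and genes at or near 0 were added after their values were seen, as were others marked so in the text. Alternatives were other pseudocounts and filters, the replicate block, plain limma, array quality weights, removal of a length and GC trend and each library left out. The array quality weights were 0.429 for both V118M libraries and 2.33 for both WT libraries. They therefore did not set V118M replicate 2 apart from V118M replicate 1.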

Additional observations from a re-analysis of the deposited data

How the results depend on the processing

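Gata2, Gata3 and Gata6 kept a negative log2 fold change under all 12 alternatives. Groups that do not overlap fix this sign in every setting except the removal of the length and GC trend. With that trend removed the log2 fold changes were -0.51, -0.50 and -0.21. No member passed a limma adjusted p of 0.05 in any setting with all 4 libraries (Gata5 was left out by the stricter filter). In these settings the limma adjusted p ranged from 0.596 to 0.99 for Gata2 and from 0.771 to 0.99 for Gata3. Direction changed for Gata5 with a pseudocount of 5 (0.0093) and for Zfpm2 with the length and GC trend removed (0.0404). In each of these settings 2 members had a positive fold change. With each library left out, the number of positive members ranged from 0 to 4, and the log2 fold change from -0.28 to 0.80 for Gata4, -1.20 to 0.97 for Gata5, -0.64 to 0.017 for Zfpm1 and -0.18 to 0.05 for Zfpm2. Single values with a changed sign were -0.28 for Gata4 without WT replicate 2, 0.97 and 0.50 for Gata5 without V118M replicate 2 and WT replicate 1, and 0.017 and 0.05 for Zfpm1 and Zfpm2 without V118M replicate 2.

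With the replicate number as a block, 3 genes passed over the whole table, C4b, Ifi27l2a and Oas2, where 0 passed without it. None was a member, and no member's call changed. Each replicate number occurs once in each group, so the block could not move any log2 fold change. Same-numbered libraries deviated together across genes (r = 0.303), but with 2 pairs and no label that says so, the numbers were not taken to pair the samples.

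With each library left out, the median log2 fold change ranged from -0.64 to 0.017 for the members, 0.014 to 0.30 for corepressors, -0.14 to 0.24 for blood partners, -0.26 to 0.00 for erythroid, -0.055 to 0.73 for mast cell, -0.12 to 0.054 for trophoblast, -0.40 to 0.079 for endoderm, -0.023 to 0.20 for cardiac, -0.034 to 0.21 for gonad, -0.31 to -0.087 for endothelial, -1.40 to -0.11 for leukocyte, -0.15 to 0.14 for related zinc finger, -0.017 to 0.11 for fibroblast and 0.02 to 0.48 for pluripotency genes. The erythroid median was -0.15 with a pseudocount of 5 and 0.00 with no filter, the endothelial median -0.11 with the trend removed, and the pluripotency median 0.00 with a filter of at least 10. The cause of these shifts was not tested. Depth is unknown, and values near 0, as for Gata1, Gata4 and Gata5, allow no precise fold change.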
